A study of Mus musculus with 24 samples.

Results

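F9 cells, a mouse embryonal carcinoma stem cell line, were compared with GC-1 cells, an immortalized mouse germ cell line described as lying between type B spermatogonia and primary spermatocytes. The 6 arrays were chosen by their labels, 3 for F9 and 3 for GC-1, out of 24 arrays in the series, and all 60804 transcript probes of the array entered the comparison. The other arrays held 5 adult mouse tissues and GC-2, a line of later spermatocyte character. Both lines are labelled male and carried no experimental treatment. They were grown in DMEM with 10% fetal bovine serum, F9 on gelatin-coated dishes and without the retinoic acid that is used to differentiate them. The replicates of a line are given as biological replicates collected at an early passage, so the p-values below measure the spread between cultures of 1 line and do not extend to other embryonal carcinoma or germ cell lines. Total RNA was labelled with Cy3 and hybridized to a mouse long non-coding RNA (lncRNA) array that also carries mRNA probes.

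Embryonal carcinoma cells are the stem cells of germ cell tumours and share with embryonic stem cells a network of transcription factors and RNA-binding proteins that keeps them undifferentiated. Spermatogonia divide by mitosis, enter meiosis in answer to retinoic acid, and leave it as spermatids that build the sperm head and tail. Long non-coding RNAs take part in both settings as hosts of small RNAs, as scaffolds of nuclear bodies and as transcripts of imprinted loci, where only 1 parental copy is active.

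A level is given here as the log2 processed signal of a probe minus the 75th percentile of its array, and a difference is the F9 mean minus the GC-1 mean of these levels, so that a positive difference is higher in F9. A probe was called when its limma adjusted p (Benjamini-Hochberg, over all 60804 probes) was 0.05 or less and the fitted fold was at least 2. Where a probe was not well above background on any array of the dimmer line, the fold is given as "at least", computed from the lowest signal that still stood above background on those arrays. Levels of different probes are not compared with each other. The array sees RNA of the whole culture, so fewer cells holding a transcript and less of it per cell cannot be told apart.

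The arrays of a line resembled each other more than those of the other line, with a correlation over all probes of 0.977 to 0.989 within a line and 0.908 to 0.917 between lines. F9 replicate 1 and GC-1 replicate 1 shared a slide, and the 4 remaining arrays shared another. The 75th percentile of intensity was 105, 72.7 and 65.5 on the F9 arrays and 131, 107 and 98.2 on the GC-1 arrays, so GC-1 was brighter in every same-numbered pair. The number of probes well above background ran from 23525 to 27537 in F9 and from 26876 to 27578 in GC-1. On F9 replicate 1 that number was 27537, against 23978 and 23525 on the other F9 arrays.

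Of the 60804 probes, 6210 were called higher in F9 (10.2%) and 5778 higher in GC-1 (9.50%), 19.7% in either direction. The probe was also well above background on all 3 arrays of the higher line for 4760 of the former (7.83%) and 5032 of the latter (8.28%), while 634 and 162 of the calls rested on probes that stood above background on no array of that line. Among the 20469 probes well above background on all 6 arrays, 3168 were higher in F9 (15.5%) and 2476 higher in GC-1 (12.1%). With dim probes left out 26771 were tested, and 4996 were higher in F9 (18.7%) and 5260 higher in GC-1 (19.6%). Among all probes 1115 were detected on all F9 arrays and no GC-1 array, and 1741 on all GC-1 arrays and no F9 array. Without F9 replicate 1 that last number was 3185. The first slide alone, with 1 array of each line, gave the same sign and at least the called fold for 5128 of the calls in F9 and 5087 of those in GC-1. Both of its arrays were among the 6 that made the calls, so this agreement is partly built in and is no separate check. The median difference over all probes was 0.40. It was 0.0021 once probes dim in 1 line were set to their bound and the 27821 probes on no array of either line were left out. List medians given with bounds below leave out such probes too. Over the 20469 probes measured in both lines the median difference was 0.19. With quantile normalization the median over all probes was 0.0164, and F9 took 47.4% of the calls instead of 51.8%. With another background correction (normexp) the calls were 2741 and 2901, and the calls it ended among the genes named here are given in the closing section.

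**Figure D1:**
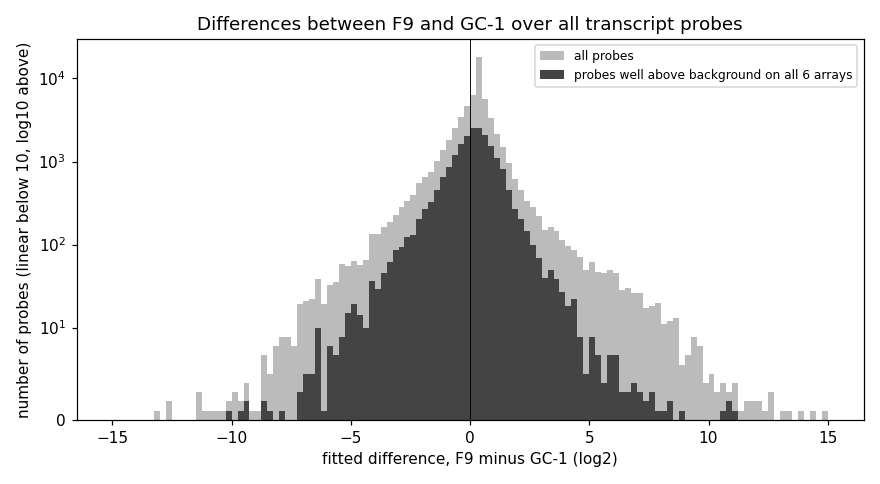
Number of transcript probes (vertical axis, linear below 10 and log10 above) by F9 minus GC-1 difference in log2 level (horizontal axis, bins of 0.25), for all 60804 probes and for the 20469 probes well above background on all 6 arrays. Both distributions reach far on either side of 0, with 6210 probes called higher in F9 and 5778 higher in GC-1.

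The mRNA probes could be named only where a list gave them as testis-specific and detected in F9, GC-1 or GC-2, so a named gene entered through a line in which it was present. Of the 260 named mRNA probes 99 were called higher in F9 (38.1%) and 37 higher in GC-1 (14.2%), against 10.2% and 9.50% of all probes, and of the 60 listed for F9 alone 58 were higher in F9. The counts and medians of the mRNA gene lists below carry this choice of members and are given as descriptions of the named genes, not as support for a shift of the pathway.

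The 2 largest fitted differences among named mRNAs were those of pluripotency genes. Zfp42 (Rex1), a zinc finger gene of undifferentiated embryonic cells lay at 4.22, 4.77 and 4.97 on the F9 arrays and at -3.92, -4.74 and -4.72 on the GC-1 arrays. All GC-1 arrays were below background for it and no GC-2 array detected it either. The difference was 9.11 ± 0.32 (SE, n = 3 arrays a line), at least 184-fold, with a limma adjusted p of 1.96e-06. Trim71, an RNA-binding protein of the ubiquitin ligase family that is active in stem cells, had the largest difference of the named mRNAs, with 6.49, 6.45 and 6.54 in F9 against -3.63, -3.57 and -4.91 in GC-1. Its F9 arrays lay close together, and the difference of 10.53 amounted to at least 657-fold (limma adjusted p = 1.96e-06).

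Zscan10, a transcription factor of embryonic stem cells, was at 3.61, 3.62 and 3.80 in F9 and at -4.29, -3.70 and -3.78 in GC-1, at least 93.3-fold higher. Fbxo15, an F-box gene classically used to report the pluripotent state, was at 3.01, 3.37 and 3.40 in F9 and at -5.11, -4.08 and -4.96 in GC-1, at least 69.8-fold higher. Neither was above background on any GC-1 or GC-2 array. The 3 probes of the Polycomb gene Phc1 differed by 4.13, 4.16 and 4.42, at least 9.63-fold each, and Nr6a1, an orphan nuclear receptor, by 1.96, at least 2.61-fold. Of the 9 probes in the pluripotency list 8 were called higher in F9 and 1 higher in GC-1, with a median difference of 4.42, or 3.87 with dim probes at their bound, beside 0.40 and 0.0021 over all probes. All 9 were above background on all F9 arrays and 8 on no GC-1 array. The exception was Igf2bp3, an RNA-binding protein of embryonic tissues and tumours, at -0.62, -1.60 and -1.66 in F9 and at 2.62, 2.80 and 2.73 in GC-1, 16.1-fold higher in GC-1 (difference -4.01 ± 0.32, limma adjusted p = 8.79e-05). Only 7 of the 20 genes in the list could be identified among the named probes.

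**Figure D2:**
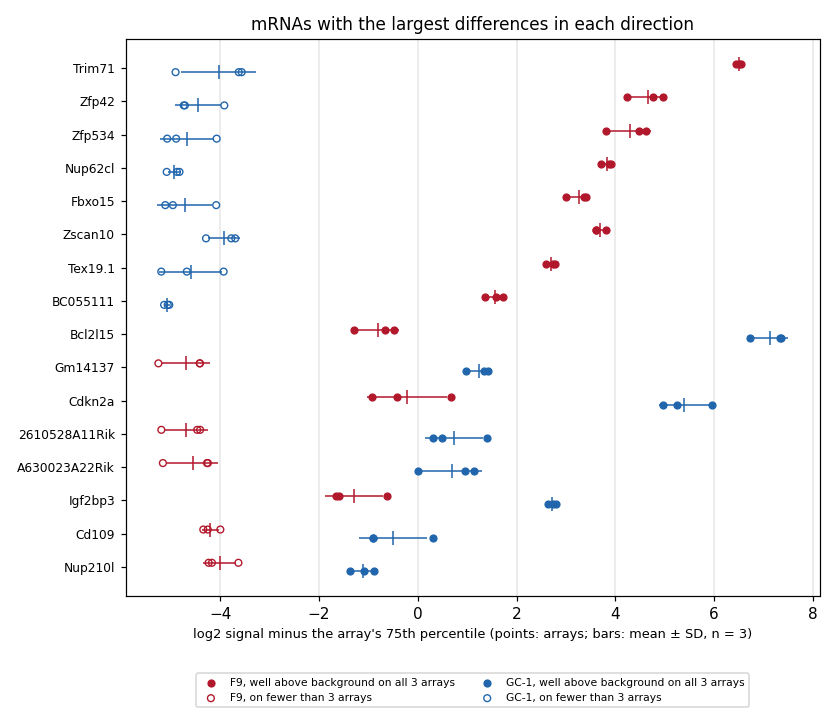
Levels (horizontal axis, log2 signal minus the array's 75th percentile) of the 8 named mRNAs with the largest called difference in each direction, 1 point an array for F9 (red) and GC-1 (blue), with the mean and SD of 3 arrays and open points where a line was above background on fewer than 3. No F9 point overlaps a GC-1 point for any of the 16 genes, which follows largely from picking them by their difference on these arrays. Trim71 and Bcl2l15 lie farthest apart in their directions.

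The other mRNAs that led in F9 were at or below background in GC-1. Zfp534, a KRAB zinc finger gene, was at least 143-fold higher in F9, and Nup62cl, a relative of a nucleoporin, at least 104-fold. Tex19.1, which restrains retrotransposons in germ and embryonic stem cells, was at 2.59, 2.74 and 2.78 in F9 and at -5.20, -3.93 and -4.68 in GC-1, at least 47.4-fold higher. BC055111 was at least 21.5-fold higher. None of the 8 leading mRNAs was detected on a GC-1 or a GC-2 array, and their largest limma adjusted p was 5.39e-06.

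Among cell cycle brakes and apoptosis genes 3 of 6 were called higher in GC-1, 2 higher in F9 and 1 in neither. Bcl2l15, a Bcl-2 family member, was at -1.30, -0.47 and -0.68 in F9 and at 6.73, 7.32 and 7.36 in GC-1. The arrays were far apart although the transcript was above background on all 6 of them, and the 248-fold difference was the largest among the named mRNAs higher in GC-1 (-7.95 ± 0.31, limma adjusted p = 2.81e-06). In GC-2 it was detected on all 3 arrays at a mean level of -1.74. Cdkn2a, whose locus encodes the cell cycle inhibitor p16INK4a and the p53 activator p19ARF, was at 0.67, -0.92 and -0.42 in F9 and at 4.97, 5.24 and 5.96 in GC-1. The lowest GC-1 array was above the highest F9 array, and the difference was 49.0-fold (-5.62 ± 0.45, limma adjusted p = 8.76e-05). In GC-2 the mean level of the same probe was 5.37.

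The 2 probes of Bcl2l11 (Bim), a death-promoting Bcl-2 relative, gave 3.80-fold and 3.69-fold higher levels in GC-1. Skp2, the ubiquitin ligase subunit that marks the inhibitor p27 for degradation, was at 0.16, 0.36 and 0.49 in F9 and at -1.69, -1.05 and -1.18 in GC-1, 3.13-fold higher in F9 (limma adjusted p = 0.00267). The kinase Pask was also called higher in F9 (difference 1.27) and Dusp4, a MAP kinase phosphatase, was not called (0.35, limma adjusted p = 0.554). In all, 4 of the 7 probes of the list were higher in GC-1 and 2 in F9, with a median difference of -1.88. Among all named mRNA probes 14.2% were called higher in GC-1 and 38.1% higher in F9.

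Among the remaining mRNAs that led in GC-1, Gm14137, 2610528A11Rik and A630023A22Rik were on no F9 array and at least 12.7-fold, 8.84-fold and 8.63-fold higher in GC-1. Cd109, a cell surface protein with a lipid anchor, was at least 3.76-fold higher, and Nup210l, a relative of a pore membrane glycoprotein, at least 2.45-fold. Of the 8 leading GC-1 mRNAs, 6 were detected on all GC-2 arrays.

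Of the 20 probes identified for 19 of the 24 listed germ line genes of the mitotic and meiotic stages, 17 were called higher in F9 and 0 higher in GC-1, beside the 38.1% and 14.2% of all named mRNA probes. The median difference was 3.75, or 2.31 with bounds. All 20 were above background on all F9 arrays, 4 were on all GC-1 arrays and 15 on none. Stra8, the retinoic acid-responsive gatekeeper of meiosis, was at 1.63, 0.98 and 1.14 in F9 and at -5.00, -4.87 and -4.85 in GC-1, at least 17.3-fold higher (limma adjusted p = 3.38e-06). Rnf17, a tudor protein of the piRNA pathway, was at 0.73, 1.41 and 1.21 in F9 and at -4.98, -4.91 and -4.88 in GC-1, at least 15.8-fold higher. Fmr1nb, a testis antigen gene beside Fmr1, was at 3.42, 2.78 and 2.96 in F9 and at -2.92, -3.49 and -3.71 in GC-1, at least 59.4-fold higher. For these genes, picked for their large called differences, every F9 array was above every GC-1 array.

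The piRNA pathway members Piwil2, Gtsf1 and Gpat2 and the chromosome axis gene Hormad2 were on no GC-1 array. Their fitted differences were 3.60, 3.59, 4.59 and 5.06, and they were at least 2.69-fold, 2.73-fold, 5.8-fold and 8.14-fold higher in F9. Tex14, which is needed for the bridges between germ cells, was called higher in F9 by both of its probes (1.80 and 5.26). Dmrtc1b, Trip13 and Mum1l1 were not called, with differences of 0.22, 0.64 and 0.77 and limma adjusted p of 0.807, 0.0847 and 0.169. The listed genes Dazl, Ddx4, Kit, Zbtb16 and Sycp3 were not among the named probes and are not analysed here. As all 20 probes stood above background in F9, the count describes germ line genes found in F9 and not the stage as a whole.

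Of 12 probes for genes of spermatids and sperm, 2 were called higher in F9, 4 higher in GC-1 and 6 in neither. Among all named mRNA probes 38.1% were called higher in F9 and 14.2% higher in GC-1. The median difference of the list was -0.58 (-0.24 with bounds), and -0.0064 with normexp background. The sperm ketone body enzyme Oxct2b was at -1.19, 0.11 and 0.17 in F9 and at -2.50, -3.99 and -2.94 in GC-1, where 1 array was above background (difference 2.84, limma adjusted p = 0.00458). Rnf151, a ring finger gene of the acrosome, was at -5.25, -3.81 and -3.44 in F9 and at -2.65, -1.41 and -1.33 in GC-1, at least 1.53-fold higher in GC-1. That call was lost without GC-1 replicate 3 (difference -2.13, limma adjusted p = 0.0517). The protease precursor gene Acr and the septin gene Sept12 were detected on all 6 arrays and differed by -0.29 and 0.0112, neither of them called.

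Of 8 named probes for developmental transcription factors 7 were called higher in F9 and 1 higher in GC-1 (median difference 3.80, 2.04 with bounds). The same choice of members applies, since 7 were above background on all F9 arrays and 5 on no GC-1 array. The homeobox genes Gsc2 and Gsc, the latter a gene of the gastrula organizer, were at least 6.68-fold and 2.89-fold higher in F9. Etv2, a factor of blood and vessel progenitors, was at 1.02, 1.1 and 1.47 in F9 and at -2.89, -3.26 and -4.20 in GC-1, at least 16.3-fold higher. Tcfl5, a basic helix-loop-helix factor, was at -0.13, 1.14 and 0.90 in F9 and at -3.67, -4.87 and -4.83 in GC-1, at least 11.3-fold higher.

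**Figure D3:**
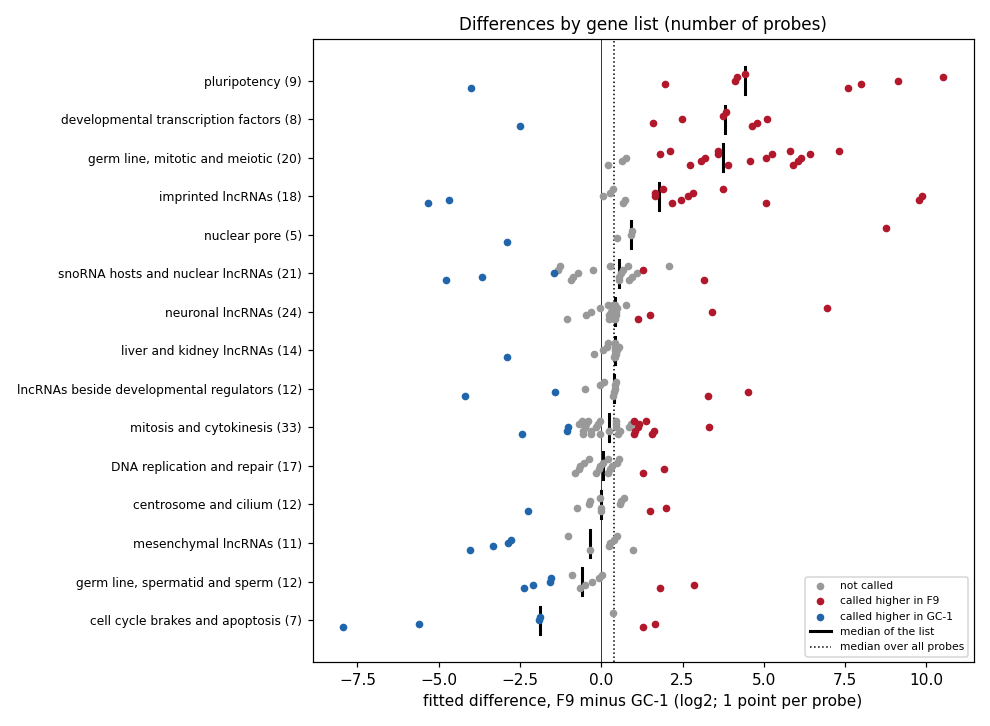
F9 minus GC-1 difference in log2 level (horizontal axis) for every probe of each gene list (1 row a list), red where called higher in F9, blue where called higher in GC-1 and grey where not called, with a bar at each list's median and a dotted line at the median over all probes. The pluripotency, developmental transcription factor and mitotic and meiotic germ line lists lie to the right of 0 (medians 4.42, 3.80 and 3.75), while the division and replication lists lie around it (0.24 and 0.04).

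In the list for mitosis and cytokinesis 12 of 33 probes were called, beside 19.7% of all probes. Of the called probes 9 were higher in F9 and 3 higher in GC-1. Among all named mRNA probes, from which the list was drawn, 38.1% were called higher in F9 and 14.2% higher in GC-1. The median was 0.24 over the list, and all 33 were above background on all GC-1 arrays. Bora, an activator of the mitotic kinase Aurora A, was at 2.07, 2.20 and 1.93 in F9 and at -0.79, -1.41 and -1.58 in GC-1, 10.0-fold higher in F9 (limma adjusted p = 0.000102). The kinetochore gene Nuf2 was at 2.47, 2.15 and 2.02 in F9 and at 0.74, 0.64 and 0.62 in GC-1, 2.92-fold higher in F9. Usp44, a deubiquitinase of the spindle checkpoint, was at least 2.04-fold higher in GC-1 by 1 of its probes, while its other probe was not called (-0.59, limma adjusted p = 0.362). Of the 17 replication and repair probes 2 were called, both higher in F9, with a median of 0.04. These were Parpbp, which restrains homologous recombination, 3.85-fold, and Tipin, a fork protection factor, 2.42-fold. Top2a, the topoisomerase of dividing cells, differed by 0.04 (limma adjusted p = 0.92).

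In the list for centrosome and cilium 2 of 12 probes were higher in F9 (Cep128 by 1.98 and Wdr62 by 1.5) and 1 higher in GC-1 (Tbc1d31 by at least 1.5-fold), with a median of -0.01. The call of Wdr62 was lost without F9 replicate 2, without F9 replicate 3 or without GC-1 replicate 2 (limma adjusted p of 0.0701, 0.0719 and 0.0727). The nuclear pore list held the opposed relatives Nup62cl and Nup210l described above, and its 3 other members, Nup205, Nup98 and Nup214, were not called (0.48, 0.90 and 0.94).

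The named lncRNAs with the largest differences in F9 included 4 transcripts of short intergenic loci on 4 chromosomes. Their probe sequences are shown because they resemble each other in pairs, so each probe may also report RNA of related loci. Each line below gives the 60-base probe, 5′ to 3′, and the capitals mark the longest run it shares with its partner, 16 bases in the first pair and 25 in the second.
Gm6083: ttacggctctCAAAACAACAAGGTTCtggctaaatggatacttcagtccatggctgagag
Gm6798: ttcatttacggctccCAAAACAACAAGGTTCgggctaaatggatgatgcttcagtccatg
Gm5229: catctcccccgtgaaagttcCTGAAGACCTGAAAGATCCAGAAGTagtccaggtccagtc
Gm11649: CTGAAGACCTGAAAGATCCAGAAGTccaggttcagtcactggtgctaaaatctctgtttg

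The transcripts lie at chr5:29538153-29538509 on the plus strand (Gm6083), chrX:8654465-8654824 on the plus strand (Gm6798), chr17:78177590-78177947 on the minus strand (Gm5229) and chr11:107531931-107532305 on the minus strand (Gm11649), in GRCm38. RefSeq lists Gm5229 and Gm6798 as pseudogenes and Gm6083 as a transcribed pseudogene. Gm6798 was at 9.45, 9.66 and 9.85 in F9 and at -1.95, -0.97 and -0.98 in GC-1, 1980-fold higher in F9 (difference 10.95 ± 0.32, limma adjusted p = 8.73e-07). Gm6083 was at 9.25, 9.64 and 9.77 in F9 and at -1.86, -0.84 and -0.98 in GC-1 (10.78 ± 0.33), and Gm5229 at 9.06, 9.27 and 9.49 against -2.25, -0.89 and -1.14 (10.70 ± 0.37). These 3 were above background on all 6 arrays, so their folds were measured in both lines. Gm11649 was at 6.80, 7.03 and 7.12 in F9 and at -5.06, -2.90 and -3.58 in GC-1, on no GC-1 array and at least 925-fold higher.

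The other leading F9 lncRNAs overlap protein-coding genes or pseudogenes in the sense direction. AK171116, within exons of the lysosomal membrane gene Laptm5, was at 7.18, 6.71 and 6.88 in F9 and at -4.98, -4.87 and -4.85 in GC-1, at least 886-fold higher, and its probe also matches the Laptm5 mRNA NM_010686. H2-Bl, a class I histocompatibility locus that RefSeq lists as a transcribed pseudogene, was at 6.78, 6.80 and 7.13 in F9 and at -4.20, -4.83 and -4.35 in GC-1, at least 873-fold higher. BC025019, in sense to the microtubule linker gene Hook1, was at least 443-fold higher and its probe matches 1 further transcript. The transcript at Tdh, which encodes threonine dehydrogenase, an enzyme on which mouse embryonic stem cells depend, was at 5.31, 5.58 and 5.54 in F9 and at -5.15, -5.01 and -4.97 in GC-1, at least 325-fold higher. With such sense overlap the probe cannot be taken to measure the lncRNA apart from the mRNA. None of the 8 leading F9 lncRNAs was detected on all GC-2 arrays, and the largest limma adjusted p among them was 5.9e-06.

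**Figure D4:**
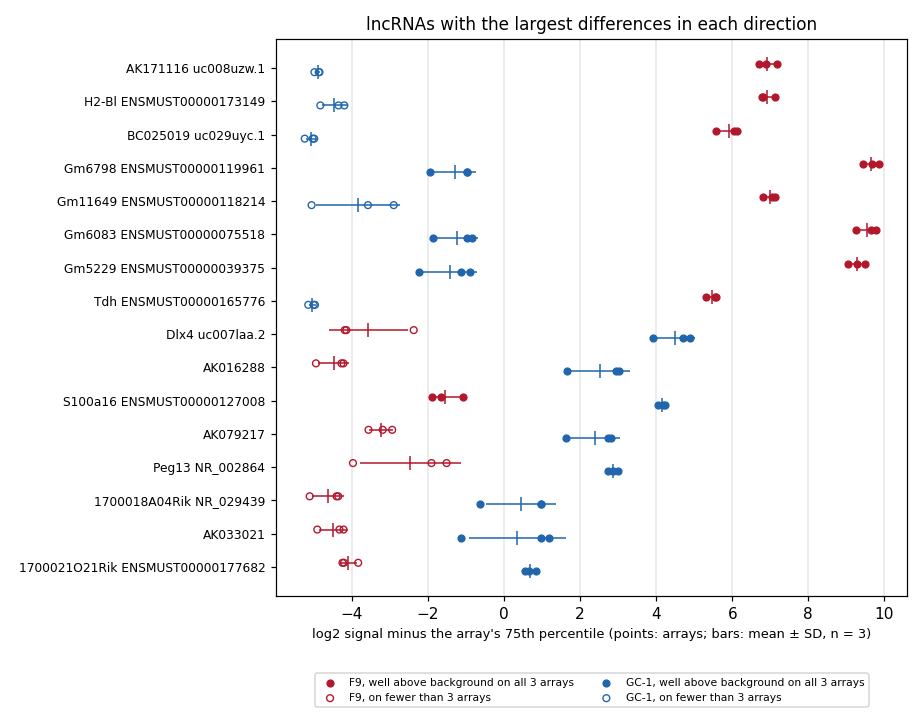
Levels (horizontal axis, log2 signal minus the array's 75th percentile) of the 8 named lncRNAs with the largest called difference in each direction, 1 point an array for F9 (red) and GC-1 (blue), with the mean and SD of 3 arrays and open points where a line was above background on fewer than 3. The arrays of the lines do not overlap for any of the 16 transcripts, which follows largely from picking them by their difference on these arrays. The intergenic Gm6798, Gm6083 and Gm5229 lie above 9 on every F9 array.

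The leading GC-1 lncRNAs had fitted differences of -8.07 to -4.78. Named lncRNAs lean to F9 through the lists that gave the names, so these sizes are not set against those of the F9 leaders. The Dlx4 transcript uc007laa.2, named for a homeobox gene, was at -2.37, -4.15 and -4.19 in F9, where 1 array was above background, and at 3.91, 4.71 and 4.88 in GC-1 (difference -8.07 ± 0.52, limma adjusted p = 2.89e-05). The S100a16 transcript, in sense to a gene for a calcium-binding protein, was at -1.09, -1.91 and -1.65 in F9 and at 4.22, 4.04 and 4.17 in GC-1, a 51.7-fold difference measured on all 6 arrays. AK016288 and AK079217 were on no F9 array and at least 30.9-fold and 28.0-fold higher in GC-1. The same held for 1700021O21Rik (at least 8.54-fold), 1700018A04Rik (at least 7.23-fold) and AK033021 (at least 6.77-fold). Of the 8, 4 were on all GC-2 arrays and 3 on none.

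Imprinted lncRNAs gave large differences in both directions. Meg3 and Rian are maternally expressed RNAs of the Dlk1-Dio3 domain, Peg13 is paternally expressed from an intron of Trappc9, and Airn is the paternally expressed antisense RNA that silences Igf2r. Of 18 probes for 7 loci, 11 were called higher in F9 and 2 higher in GC-1, beside 10.2% and 9.50% of all probes. Among all named lncRNA probes, which lean to F9 through their lists, 19.2% were called higher in F9 and 7.35% higher in GC-1. The median difference of the 18 was 1.78 (0.82 with bounds). Meg3 gave 5 of the 11 and Rian 4, so the count is mostly of probes of these loci. Only 7 of the 11 were above background on all F9 arrays. The Meg3 probe for NR_003633 was at 5.05, 5.22 and 4.21 in F9 and at -5.21, -4.97 and -4.93 in GC-1, at least 207-fold higher (difference 9.87 ± 0.31, limma adjusted p = 1.2e-06). The probe for ENSMUST00000129245 was at 4.91, 5.10 and 4.02 against -5.23, -5.03 and -4.99, at least 186-fold higher. The Meg3 probe for ENSMUST00000150851 was at 6.57, 6.69 and 6.89 in F9 and at 6.45, 6.53 and 6.09 in GC-1 and was not called (difference 0.36 ± 0.23, limma adjusted p = 0.299).

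The probes of 1 locus therefore disagreed. Of the 7 Meg3 probes 5 were called, by 2.18 to 9.87, and NR_027651 was the other exception (0.74, limma adjusted p = 0.165). The NR_027651 probe also matches the transcript NR_003633, whose own probe gave the largest difference. ENSMUST00000128178 and NR_046475 were above background on 2 F9 arrays only. The sequences are shown because they tell which stretch of the locus was read, and the lines give the called pair first and the 2 uncalled probes after it. They stand all in lower case, as no part is singled out.
Meg3 NR_003633: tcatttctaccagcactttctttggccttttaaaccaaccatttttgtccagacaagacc
Meg3 ENSMUST00000129245: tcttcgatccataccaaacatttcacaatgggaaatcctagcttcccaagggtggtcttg
Meg3 ENSMUST00000150851: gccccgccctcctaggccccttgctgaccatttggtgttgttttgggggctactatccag
Meg3 NR_027651: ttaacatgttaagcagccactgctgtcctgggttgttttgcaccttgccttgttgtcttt

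In GRCm38 these transcripts lie on the plus strand at chr12:109545398-109568600, chr12:109541001-109545319, chr12:109549255-109549775 and chr12:109540996-109568600, in that order. ENSMUST00000150851 thus falls within the span of NR_003633, and the annotation calls all of them intergenic. Rian starts 32216 bases beyond the end of Meg3. All 4 Rian probes were called higher in F9, by 1.67 to 5.07, and none was on a GC-1 array. ENSMUST00000180876 was at 0.58, 0.39 and -0.53 in F9 and at -5.03, -4.87 and -4.86 in GC-1, at least 8.08-fold higher. NR_028261 was at least 2.86-fold higher. The other Rian probes stood above background on 1 F9 array only, and the call of uc011ysp.1 (limma adjusted p = 0.0363) was lost without F9 replicate 1, F9 replicate 2, GC-1 replicate 1 or GC-1 replicate 3 (0.0866, 0.0884, 0.109 and 0.108). It was also lost with the slide as a block (0.0561), with the percentile taken over detected probes (0.056), with quantile normalization (0.0763) and within the second slide (0.205).

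Peg13 was at -3.97, -1.51 and -1.91 in F9, above background on 2 arrays, and at 2.73, 3.00 and 2.88 in GC-1 (difference -5.33 ± 0.59, limma adjusted p = 0.000461). Airn was at -5.05, -4.19 and -4.19 in F9 and at 0.55, -0.08 and 0.14 in GC-1, at least 6.14-fold higher in GC-1, and was on no GC-2 array. The lines did not overlap for either. H19, Kcnq1ot1 and the Nespos probe NR_002846 were detected on all 6 arrays and not called (0.27, 0.68 and 0.04, with limma adjusted p of 0.646, 0.0633 and 0.891). The 2 other Nespos probes were higher in F9 by 1.66 and 1.90, the first of them on no GC-1 array (at least 3.12-fold).

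**Figure D5:**
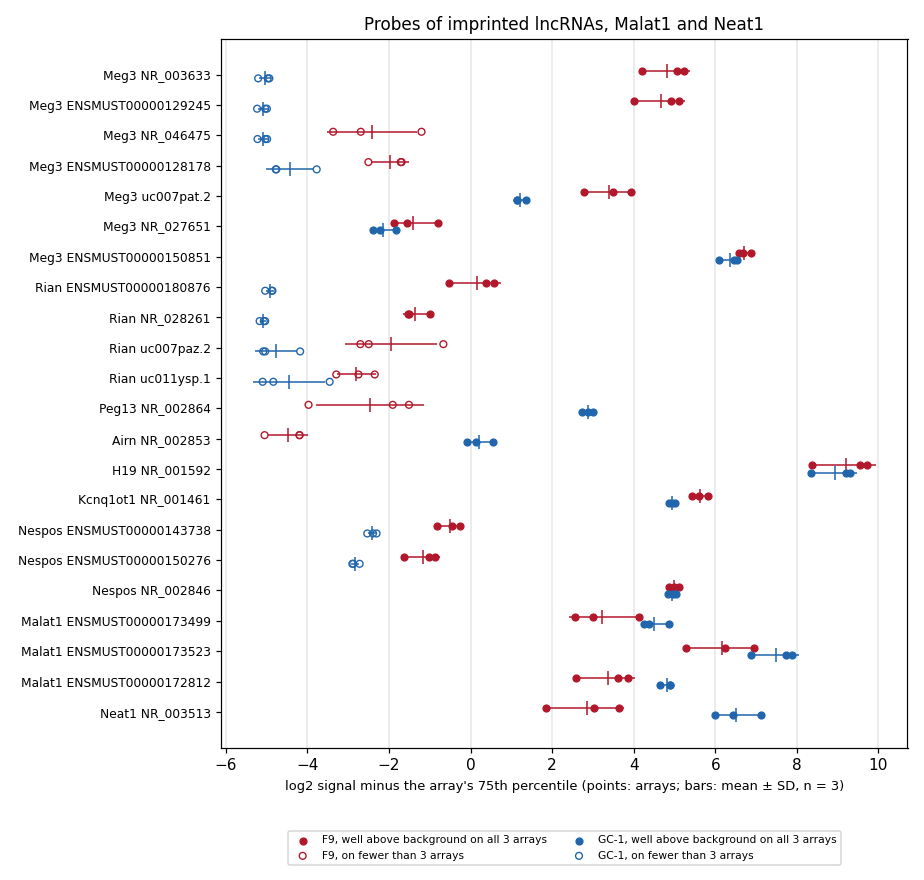
Levels (horizontal axis, log2 signal minus the array's 75th percentile) of every imprinted lncRNA probe and of Malat1 and Neat1, 1 point an array for F9 (red) and GC-1 (blue), with the mean and SD of 3 arrays and open points where a line was above background on fewer than 3. Meg3 probes range from a difference of 9.87 to one of 0.36, and Peg13, Airn and Neat1 lie higher in GC-1 without overlap.

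Of 21 probes for nuclear and snoRNA host lncRNAs 2 were called higher in F9 and 3 higher in GC-1, a share near the 19.7% of all probes called, with a median of 0.55 (0.27 with bounds). Neat1, the scaffold of paraspeckles, was at 3.65, 3.04 and 1.85 in F9 and at 7.11, 6.42 and 6.0 in GC-1, 12.7-fold higher in GC-1 (difference -3.67 ± 0.49, limma adjusted p = 0.00124). The lines did not overlap, although the F9 arrays spread over more than a log2 unit. Rpph1, the RNA subunit of RNase P, was at 6.45, 6.94 and 6.61 in F9 and at 3.66, 3.30 and 3.53 in GC-1, 9.01-fold higher in F9 (limma adjusted p = 6.83e-05). Snhg6, a snoRNA host, was higher in F9 by 1.28.

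Malat1, an abundant RNA of nuclear speckles whose gene lies 22036 bases from Neat1, was lower in F9 by all 3 of its probes but called by 1. ENSMUST00000172812 was at 3.62, 3.87 and 2.60 in F9 and at 4.88, 4.90 and 4.64 in GC-1 (difference -1.44, limma adjusted p = 0.0216), a call lost without GC-1 replicate 1 or GC-1 replicate 2 (0.0655 and 0.0671). The other differences were -1.34 and -1.26, with limma adjusted p of 0.0757 and 0.0676. With the replicate number as a block both of these were called too (0.0193 and 0.0295).

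Gas5, a snoRNA host that accumulates in cells that stop growing, had 9 probes and 1 call. ENSMUST00000159890 was at 1.25, 1.71 and 1.06 in F9 and at 6.69, 5.87 and 5.77 in GC-1, 27.3-fold higher in GC-1 (difference -4.77 ± 0.32, limma adjusted p = 3.68e-05). The 8 others ran from -0.87 to 1.08 and were not called. ENSMUST00000159663, for example, was at 9.37, 9.14 and 9.02 in F9 and at 9.34, 8.31 and 8.21 in GC-1. Without GC-1 replicate 1, whose Gas5 levels were the highest of GC-1 in that probe, 4 of the 8 were called higher in F9, by 1.08 to 1.53. The Neat1, Peg13 and Gas5 probes are shown since the differences of these loci rest on them, with the uncalled Gas5 probe last.
Neat1 NR_003513: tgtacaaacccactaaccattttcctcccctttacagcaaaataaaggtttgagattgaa
Peg13 NR_002864: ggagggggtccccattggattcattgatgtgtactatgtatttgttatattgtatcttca
Gas5 ENSMUST00000159890: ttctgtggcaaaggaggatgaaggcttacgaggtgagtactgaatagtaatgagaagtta
Gas5 ENSMUST00000159663: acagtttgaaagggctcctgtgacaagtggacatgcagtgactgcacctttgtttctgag

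In GRCm38 the transcripts lie at chr19:5842302-5845478 on the minus strand, chr15:72805600-72810324 on the minus strand, chr1:161035188-161038539 on the plus strand and chr1:161035166-161038539 on the plus strand. The Neat1 probe matches 2 further transcripts and the called Gas5 probe 3, 1 of them NR_002840. Gas5 starts beside the oppositely oriented gene Zbtb37.

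Transcripts beside developmental regulators were mostly dim, with 5 of 12 probes on no array of either line. Srrm4os, antisense to a neural splicing factor gene, was at -0.70, -0.49 and -0.04 in F9 and at -5.04, -4.83 and -4.92 in GC-1, at least 5.49-fold higher in F9. Foxl2os was at least 2.08-fold higher in F9. The Runx2 transcript NR_073425, at the locus of the osteoblast regulator, was at -5.13, -4.18 and -4.22 in F9 and at -0.80, -0.08 and -0.11 in GC-1, at least 4.24-fold higher in GC-1. Six3os1 was called higher in GC-1 (-1.43) but stood above background on no array.

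The identity of the cultures was checked against markers of other cell types. The lncRNA of Gap43, a growth cone protein gene of neurons, was at 5.66, 4.79 and 5.03 in F9 and at -1.76, -1.63 and -1.96 in GC-1. It was detected on all 6 arrays and was 123-fold higher in F9 (difference 6.94 ± 0.28, limma adjusted p = 3.49e-06). This lncRNA lies in sense over Gap43 exons at chr16:42248458-42276072 in GRCm38. It was not accompanied by the rest of the neuronal list, of which 19 of 24 probes were on no array of either line. The median level of the neuronal list ran from -4.90 to -4.20 on the F9 arrays and from -5.03 to -4.76 on the GC-1 arrays. Unc80, a sodium leak channel subunit locus, was the other detected neuronal call, at least 2.63-fold higher in F9.

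Of 11 mesenchymal lncRNAs 0 were called higher in F9 and 4 higher in GC-1, beside 10.2% and 9.50% of all probes. Among all named lncRNA probes the shares were 19.2% and 7.35%. The median difference of the list was -0.34 (-0.53 with bounds). The median level of the list was -2.69 to -2.37 on the F9 arrays and -1.22 to -0.78 on the GC-1 arrays. Those medians fall on different probes, so the gap between them is not the size of a difference. The transcript at Tpm1, a tropomyosin gene, was at 4.19, 3.88 and 3.87 in F9 and at 7.28, 6.65 and 6.58 in GC-1, 7.25-fold higher in GC-1 (limma adjusted p = 0.000208). Those at the matrix gene Ccdc80 and the caveolin gene Cav1 were on no F9 array and at least 3.86-fold and 2.16-fold higher in GC-1, and that at Angptl2 was on 2 GC-1 arrays (at least 1.66-fold). The members not called were Col16a1 and Adamtsl5 (-1.03 and -0.34) and Col4a2, Plod3, Egflam, Ahnak and Palld (0.23, 0.27, 0.39, 0.49 and 0.98). Ahnak was on no array of either line and Palld on no GC-1 array. The part of this list's difference in the other results was not tested. Of 14 liver and kidney lncRNAs 13 were on no array of either line, and the transcript at the carbonic anhydrase gene Car12 was at least 1.75-fold higher in GC-1. Star, the cholesterol carrier of Leydig cells, was detected on 1 F9 array and all 3 GC-1 arrays and was not called (difference -0.08, limma adjusted p = 0.914). The other listed Leydig cell genes, Cyp17a1, Hsd3b1 and Insl3, were not among the named probes, so this cell type was read by Star alone.

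Several loci were read by more than 1 named lncRNA probe, and those below were chosen after their values were seen. Of 64 such loci, 39 had no called probe, 6 had every probe higher in F9, 4 had every probe higher in GC-1, 14 were called by some of their probes in 1 direction and 1 in both. At 4930566F21Rik both probes were higher in F9 by 7.92 and 8.14, at least 65.1-fold and 69.9-fold. At 2210408F21Rik all 5 probes were higher in GC-1, by -4.25 to -2.55, and 4 of them were above background on F9 replicate 1 but on no other F9 array. At the unnamed locus XLOC_024527, 4 of 5 probes were higher in F9, by 4.72 to 7.11, while TCONS_00032510 was level in the lines (6.63, 7.41 and 7.41 against 6.79, 7.33 and 7.38). Those 4 were on no GC-1 array and at least 6.27-fold to 34.4-fold higher. The locus called in both directions was 2810008D09Rik, with NR_027059 at -1.25 and ENSMUST00000145438 at 1.38.

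A stretch of chromosome X held neighbours that differed in the same way. Gm4779 was read by ENSMUST00000147742 at 4.57, 5.13 and 5.16 in F9 and at -3.68, -5.01 and -4.98 in GC-1, at least 226-fold higher in F9. Its other transcript, ENSMUST00000056225, was at 8.36, 8.58 and 8.88 in F9 and at 8.90, 9.04 and 9.39 in GC-1 and was not called (-0.51, limma adjusted p = 0.22). The next gene, 8030474K03Rik, begins 86 bases beyond the end of Gm4779 in RefSeq and is read from the other strand. Its probe was at 6.44, 5.76 and 5.79 in F9 and at -2.29, -2.35 and -2.06 in GC-1, 301-fold higher in F9 (limma adjusted p = 1.26e-06). BC100492, which covers the same stretch, was at 5.81, 5.20 and 5.20 in F9 and at -4.91, -4.91 and -4.85 in GC-1, at least 309-fold higher, and its 60-base probe shares 42 bases with that of 8030474K03Rik. RefSeq lists Gm4779 and 8030474K03Rik as protein-coding.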

How the data were processed

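Total RNA from F9 and GC-1 cells (3 biological replicates each, collected at passage 3 or 4) was measured on 1-colour Agilent arrays. The authors deposited scanner files made with Feature Extraction 11.5.1.1, whose intensity values (background-subtracted processed signal per spot) were not normalized between arrays, together with a series table that held the same intensity values. The RNA extraction is given as TRIzol in the labels and as a column kit in the methods. From the processed signal of 60804 transcript probes, log2 values minus each array's 75th percentile were computed over each array and fitted with limma 3.58.1 (lmFit and eBayes, R 4.3.3) on the 6 arrays, 1 coefficient for the line. The spots carry no gene symbols. Names were taken from the study's supplementary lists by probe, for 3295 probes (5.42%: 3035 lncRNA and 260 mRNA). The lncRNA lists of the tissues and of F9 were held only in part here, so no share over any of them is given. Shares over all named lncRNAs describe the probes held and not the full lists. The F9 list as held gave its most abundant lncRNAs first, and no matching list of GC-1 was held. The named lncRNAs therefore lean to F9.

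Named genes were the 2 markers, the 8 mRNAs and 8 lncRNAs with the largest called difference in each direction among probes above background on all arrays of the higher line (1 probe a symbol), and, in each gene list, up to 4 genes with the largest called difference. Other members are given by value or count, and some are not reported here. Genes, lists and members were chosen with earlier results of these data known. Positions are those of the lists, checked as GRCm38 against RefSeq (GRCm38.p6), where 94 of 97 matched transcripts (96.9%) fell inside their gene.

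Replicate numbers were taken as a possible pairing and tried as a block, while the main fit used no pairing. Deviations from the line means, over 20469 probes detected on all 6 arrays, correlated at 0.413, 0.365 and 0.264 for the same number. Different numbers gave -0.41 to 0.283. The highest of these was F9 replicate 3 with GC-1 replicate 2, so replicates 2 and 3 were not told apart. Deviations of a line cancel out over its arrays, which lowers the correlations of different numbers. The first pair shared a slide apart from the other 4 arrays. On simulated data with known changes among 60804 probes, the fit of F9 against GC-1 recovered 1.49% of log2 changes of 1, 34.3% of changes of 2 and 69.7% of changes of 3.5. Only 67, 67 and 66 probes were changed in it, against 11988 called in the data, so its adjusted p was stricter. A log2 change of 1 also lies at the called fold itself. These shares therefore do not carry over to the data. Alternatives were other scalings (percentile over detected probes, median, quantile), normexp background (offset 50) on the median spot and background signals, omission of dim probes, replicate or slide as a block, all 24 arrays, an intensity trend, the series table, a fold of 5, the methods' t-test and omission of each array. The second slide alone was added after seeing the data. No spot was saturated, and the number of arrays limits the precision.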

Additional observations from a re-analysis of the deposited data

How the results depend on the processing

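The precision rests on 3 arrays a line. Under normexp background the calls fell to 2741 higher in F9 and 2901 higher in GC-1, of which 2706 and 2705 were also called as reported. A fold of 5 left 2088 and 2264. Without each array in turn the calls ran from 4858 to 7447 in F9 and from 4869 to 6054 in GC-1. Probes detected in GC-1 only ran from 1786 to 3185, the highest without F9 replicate 1, and those in F9 only from 1166 to 1346. The replicate number as a block gave 6442 and 5932 calls. It changed the call of 2 of 95 named transcripts, both Malat1 probes, and of no other. Other scalings gave 4870 to 6312 calls in F9 and 5409 to 6172 in GC-1, with 46.8% to 52.2% of calls in F9. The second slide alone, chosen after seeing the data, gave 6767 and 6054. The methods' t-test, with the same fold, gave 6226 and 5767 unadjusted and 4356 and 4163 after Benjamini-Hochberg. Under every setting 59 of the 95 named transcripts kept their call. Normexp, whose offset of 50 shrinks the folds of dim probes by construction, changed 29 of them. The calls of both uncalled Malat1 probes were gained, and those of Cd109, Nup210l, Gsc, Rnf151, Iqcf5, Dnah8, Usp44, Tipin, Tbc1d31, Wdr62, Cep128, 1 Bcl2l11 probe, Skp2, Rian (all but ENSMUST00000180876), Meg3 ENSMUST00000128178 and NR_046475, Six3os1, Foxl2os, Nrcam, Grin2a, Unc80, Ccdc80, Cav1, Angptl2 and Car12 were lost, in the same direction. List medians under it were nearer to 0 for pluripotency (2.02), developmental transcription factors (1.06) and mitotic and meiotic germ line genes (1.08). The same held for imprinted lncRNAs (0.63), cell cycle brakes and apoptosis genes (-0.86) and genes of spermatids and sperm (-0.0064). Normexp turned the median of the mesenchymal lncRNAs to 0.0231. Gas5 ENSMUST00000162558, not called, ran from -0.5453 to 0.1712 when 1 array was left out, positive without GC-1 replicate 1. The causes of the other changes were not tested.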
